A study of Homo sapiens with 5 samples.

Results

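A set of 8 genes known for their expression in embryonic and germ line cells and in tumours were examined in HEK293 cells: the RNA-binding proteins LIN28A, LIN28B, IGF2BP1, IGF2BP2 and IGF2BP3, the transcription factor SALL4, the chromatin-associated factor DPPA4 and the tumour antigen PRAME. They were chosen by name, with earlier results of these data known. Of the 8 names, 7 had a row among the 24497 gene rows of the table. The level of DPPA4 was not analysed here, and it entered only the sequence search. HEK293 is a human cell line made from embryonic kidney by transformation with adenovirus DNA. The labels give no treatment, and the cells were of one line and grown in DMEM with glutamine and fetal calf serum in both groups. The 2 groups are 2 batches, with 2 libraries in batch A and 3 in batch B. Each library carried the material of 100 cells, taken from a lysate of 1000 cells, and was amplified by 18 cycles of PCR. Reverse transcription was primed with oligo-dT and reads were selected from the 5′ ends of transcripts.

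LIN28A and LIN28B are paralogs that bind precursors of the let-7 microRNAs and hold back their maturation. The let-7 microRNAs in turn repress mRNAs that carry matches to their seed, among them those of LIN28B and HMGA2, so that both sides are usually described as a double-negative switch between embryonic and mature states. The IGF2BP proteins bind many mRNAs, including ones marked with N6-methyladenosine (m6A), and protect them from decay. SALL4 and DPPA4 belong to the factors of pluripotent cells. PRAME is silent in most adult tissues outside the testis and serves as the substrate receptor of a CUL2 ubiquitin ligase.

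The let-7 sequences are shown first because 6 of the 8 genes hold the matching letters in their 3′ UTR. RefSeq (GRCh38.p14) lists 9 mature 5p sequences of the family, and all 9 share bases 2 to 8, printed in capitals. The 5 below are those whose genes have a row in the table.
hsa-let-7a-5p: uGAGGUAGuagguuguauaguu
hsa-let-7d-5p: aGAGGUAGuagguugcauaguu
hsa-let-7g-5p: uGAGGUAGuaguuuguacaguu
hsa-let-7i-5p: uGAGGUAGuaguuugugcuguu
hsa-miR-98-5p: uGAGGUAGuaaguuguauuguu

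The 7 letters complementary to that seed, CTACCTC, were searched on the transcript strand of 1 GENCODE transcript per gene. LIN28B held 4 matches in a 3′ UTR of 4549 bases and IGF2BP1 held 4 in 6206 bases. LIN28A, IGF2BP2, IGF2BP3 and SALL4 held 1 match each, and DPPA4 and PRAME held 0. The 3′ UTR of PRAME is the shortest of the 8, at 365 bases, and that of DPPA4 has 1847 bases. Below, all matches of LIN28B and IGF2BP1, which hold the most, are shown with their surroundings, together with the single match of the other 4 genes and the first of the classical let-7 target HMGA2. Capitals mark the 7 letters, and positions count from 1 at the first base after the stop codon.
LIN28A at 905: gcacagcctattgaaCTACCTCatttttgc
LIN28B at 44: acccggttgcaaagtCTACCTCatgcaagt
LIN28B at 2471: tactgatgatagtaaCTACCTCtgagtttg
LIN28B at 2653: gtttacagcaaaaggCTACCTCatagttga
LIN28B at 4092: aaatgatggtgttgaCTACCTCttgaatca
IGF2BP1 at 1632: tgtgtgcgaagtaaaCTACCTCaaggtatg
IGF2BP1 at 4269: cagcagtgctagtaaCTACCTCacagagcc
IGF2BP1 at 4923: gtataaatggattaaCTACCTCaatcctta
IGF2BP1 at 5568: tcacttttgttttatCTACCTCttagcaaa
IGF2BP2 at 1304: aacacacagaagaagCTACCTCaggtgttt
IGF2BP3 at 560: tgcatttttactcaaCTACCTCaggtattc
SALL4 at 1335: aaagctttaatttatCTACCTCatttattt
HMGA2 at 21: gccaacgttcgatttCTACCTCagcagcag

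The first match of each of these 7 genes is followed by an A, a base that often flanks effective matches of microRNAs. In LIN28B 2 of 4 matches were followed by an A, in IGF2BP1 3 of 4 and in HMGA2 1 of 4. Of 18862 protein-coding genes with a 3′ UTR, whose median length was 876.5 bases, 8.62% held the 7 letters. Among 4555 genes that entered the batch test and had a 3′ UTR of at least 1000 bases, the share was 15.6%. Of the 18862 genes, 12 held 4 or more matches, and LIN28B and IGF2BP1 were 2 of those 12. Their 3′ UTRs of 4549 and 6206 bases are longer than the median of 876.5, and that count was not matched for length. A match describes letters in a transcript and does not show that let-7 acts on it in these cells.

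**Figure D1:**
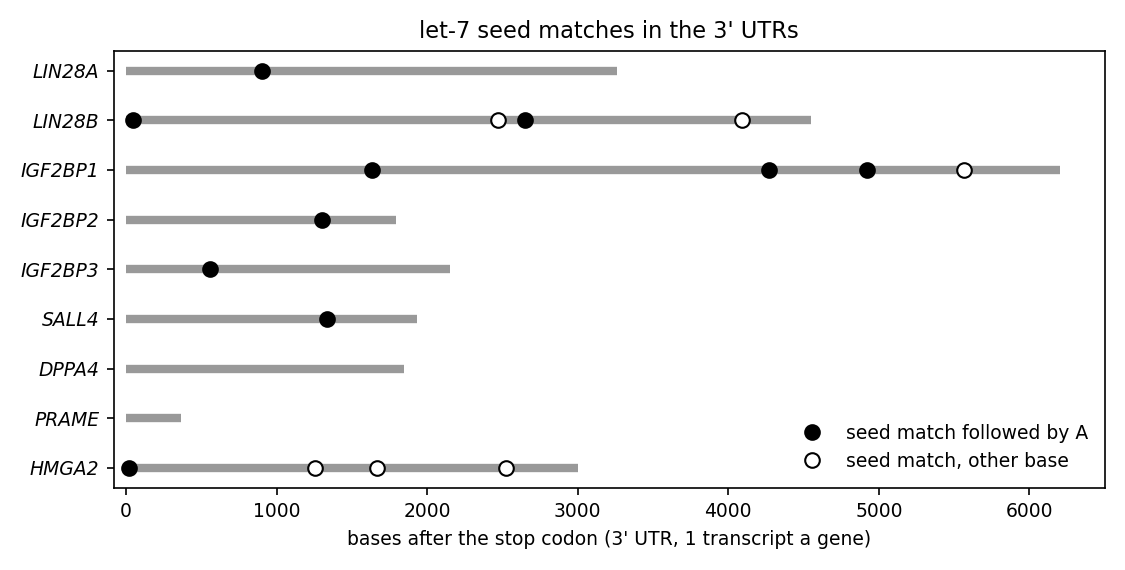
Position of let-7 seed matches along the 3′ UTR of the 8 genes and HMGA2, in bases after the stop codon, for 1 GENCODE transcript per gene (grey bars). Filled circles are matches followed by an A and open circles are matches followed by another base; LIN28B and IGF2BP1 hold 4 matches each, DPPA4 and PRAME 0.

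Gene counts per library ran from 373687 in batch B library 1 to 803168 in batch A library 3, and levels are given as CPM, the count scaled to a common library total of gene counts. Libraries are called by the numbers that end their columns, which in batch A differ from the replicate numbers of the labels. The labels do not say whether libraries came from separate cultures, and the p-values below therefore speak only of the spread among libraries, possibly a technical one. Those of edgeR use a spread shared by genes of similar level, not that of the named gene alone. With 3 counts taken as the limit, a count of 0 allows a level of 8.03 CPM at the lowest depth and of 3.74 CPM at the highest. Intervals are exact 95% binomial (Clopper-Pearson) intervals and, like that limit, cover counting error only. In bulk samples, fewer cells of a type and less RNA per cell cannot be told apart.

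Markers of the line were checked before the genes of interest. Of 13 names of embryonic kidney and HEK293 markers, 12 had a count and 11 entered the test, with VIM, an intermediate filament protein, and CDH2, a cadherin, at the highest levels. PAX8 was at 0 in all libraries and PAX2, both kidney lineage factors, had 1 to 4 counts per library. The summed level of the fibroblast list was 4.37 to 11.2 CPM in batch A and 13.4 to 24.8 CPM in batch B, with COL1A2 and PDGFRB at 0, and that of the blood and endothelial list was 2.49 to 2.91 CPM and 2.68 to 12.2 CPM, with CD3E and VWF at 0. None of the 10 genes of those 2 lists that had a row reached the test. The germ cell list summed to 10.2 to 12.5 CPM in batch A and 8.69 to 14.6 CPM in batch B, with 33 counts from KIT, 2 from NANOS3 and 1 from SYCP3 over all libraries and PIWIL2 at 0. The part of such cells in the results below was not tested.

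The 7 genes fell into 2 classes of level. IGF2BP1, IGF2BP2, PRAME, LIN28B and IGF2BP3 had counts in every library and mean levels of 192, 161, 70.2, 66.6 and 57.2 CPM. LIN28A and SALL4 had 2 and 5 counts over all 5 libraries. The annotation places IGF2BP1 on chromosome 17, IGF2BP2 on 3, IGF2BP3 on 7, LIN28A on 1, LIN28B on 6, SALL4 on 20 and PRAME on 22, so no pair of neighbours is among them. By mean CPM, IGF2BP1 ranked 1041st among the 24497 genes, IGF2BP2 1257th, PRAME 3096th, LIN28B 3250th and IGF2BP3 3753rd. The 5 higher genes passed the filter on low counts and were tested between batches, and the other 2 did not pass it.

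**Figure D2:**
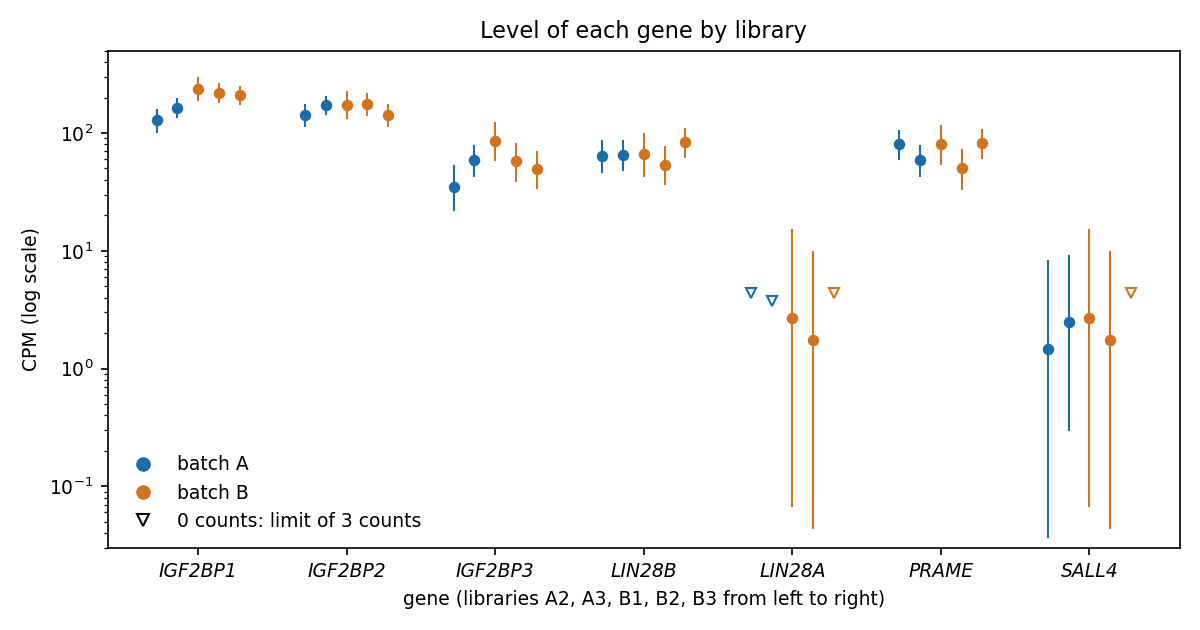
CPM (log scale) of the 7 genes in each library, batch A in blue and batch B in orange, with exact 95% intervals of counting error as bars and open triangles at the limit of 3 counts where a library had 0 counts. IGF2BP1 and IGF2BP2 lie above 100 CPM in every library. LIN28A and SALL4 lie below 3 CPM where they had a count, and their triangles lie at 3.74 to 4.38 CPM.

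Among the IGF2BP family, IGF2BP1 is the classical oncofetal member, first described as a zipcode- and MYC mRNA-binding protein. It had 88 and 132 counts in batch A libraries 2 and 3, and 89, 126 and 143 counts in batch B libraries 1, 2 and 3. These counts correspond to 128 and 164 CPM in batch A and to 238, 219 and 209 CPM in batch B. All 3 libraries of batch B lay above both of batch A, and the highest level was found in the shallowest library.

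IGF2BP1 rose in batch B from 146 ± 25.6 to 222 ± 15.0 CPM (SD, n = 2 and 3), and was the only one of the 5 tested genes to pass. The fitted difference was 1.51-fold (95% interval 1.26 to 1.81), or 0.60 on the log2 scale (SE 0.13), with edgeR's quasi-likelihood adjusted p = 0.000783 over 9215 genes. Of all tested genes, 4.2% passed the same threshold (2.15% higher and 2.05% lower in batch B). In CPM, 31.3% had batches that did not overlap (13.5% with batch B higher and 17.8% lower). Against these shares 1 of 5 genes is too small a count to set the group apart, and the median log2 difference of the 5 was 0.12. When batch A library 2 was left out, the log2 difference was 0.47 and no longer passed (edgeR adjusted p = 0.140). It was also lost after thinning all libraries to the depth of the shallowest, at 0.46 (edgeR adjusted p = 0.122). With all 5 libraries, IGF2BP1 had a DESeq2 adjusted p = 0.0348. The batches also differ in depth, and the part of depth in the difference of IGF2BP1 was not tested beyond that thinning.

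IGF2BP2, the family member known for its expression in adult tissues and for its link to type 2 diabetes, had 98 and 139 counts in the A libraries and 65, 101 and 97 counts in those of batch B. In CPM these were 143 and 173 in the A libraries and 174, 176 and 142 in those of batch B. The batches overlapped fully, with a fitted ratio of 1.03 (95% interval 0.853 to 1.25, edgeR adjusted p = 0.924).

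IGF2BP3, an oncofetal member used as a tumour marker, was the least abundant of the family. It had 24 and 47 counts in the A libraries and 32, 33 and 34 counts in those of batch B, which gave 34.9 and 58.5 CPM against 85.6, 57.3 and 49.6 CPM. The lowest level, in batch A library 2, and the highest, in batch B library 1, had counting intervals that did not overlap (22.4 to 52.0 and 58.6 to 121 CPM). The difference between batches did not pass the test, at 1.31-fold (95% interval 0.941 to 1.81, edgeR adjusted p = 0.451). Its log2 value of 0.38 was 0.80 without batch A library 3 and 0.11 without batch A library 2.

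Shares within the family do not depend on how libraries are scaled. IGF2BP1 made up 41.9% and 41.5% of IGF2BP counts in the A libraries and 47.8%, 48.5% and 52.2% in those of batch B. IGF2BP2 made up 46.7% and 43.7% in the A libraries and 34.9%, 38.8% and 35.4% in those of batch B. IGF2BP2 was therefore the more counted of the pair in both libraries of batch A, and IGF2BP1 in all 3 of batch B. The counting intervals of the pair overlapped in both libraries of batch A. In library 2 they were 35.2 to 48.9% for IGF2BP1 and 39.8 to 53.7% for IGF2BP2. They overlapped in batch B libraries 1 and 2 as well, but not in library 3, so most libraries do not settle the order. IGF2BP3 stayed between 11.4% and 17.2%, with overlapping batches.

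The share of IGF2BP1 was 7.79 percentage points higher in batch B and that of IGF2BP2 was 8.79 points lower (difference -8.79). The shares of a library add up to a whole, so these are not separate results. In level, IGF2BP2 had a fitted ratio of 1.03. For either, the exact two-sided permutation test over the 10 splits of 2 against 3 libraries gave p = 0.1, the smallest it allows, and 0.2 after adjustment over the 4 paralog shares tested. For IGF2BP3 the difference was 0.998 points (exact permutation p = 0.8), and without batch A library 2 it was -0.678. The counting intervals of single libraries overlapped between batches for IGF2BP1, for instance 36.0 to 47.1% in batch A library 3 and 46.1 to 58.2% in batch B library 3.

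**Figure D3:**
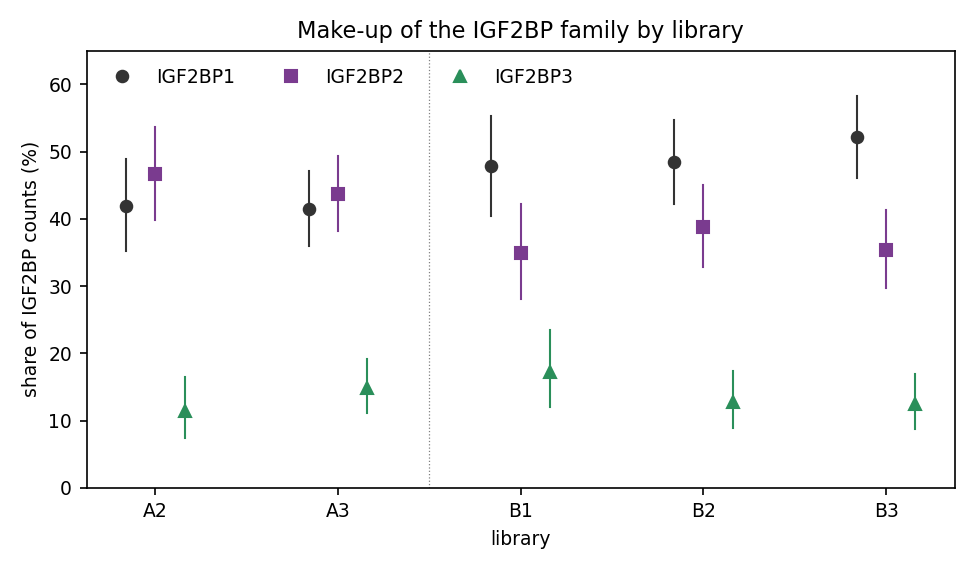
Share of each paralog among the IGF2BP counts of a library, in percent, with exact 95% binomial intervals; the dotted line separates batch A from batch B. IGF2BP2 lies above IGF2BP1 in both libraries of batch A and below it in the 3 libraries of batch B, and IGF2BP3 stays between 11.4% and 17.2%. The intervals of IGF2BP1 and IGF2BP2 overlap in every library except batch B library 3.

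The LIN28 pair was represented by LIN28B alone at this depth. LIN28B had 44 and 52 counts in the A libraries and 25, 31 and 57 in those of batch B, or 64.1 and 64.7 CPM against 66.9, 53.9 and 83.2 CPM. Both libraries of batch A lay inside the range of batch B, and the fitted ratio was 1.09 (95% interval 0.809 to 1.46, edgeR adjusted p = 0.858). Its coefficient of variation over the 5 libraries, 15.9%, was no larger than counting alone gives at this depth. IGF2BP1 varied by 23.3% where counting gives 9.63%.

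LIN28A, the paralog of pluripotent stem cells, had 0 counts in both libraries of batch A and in batch B library 3, and 1 count in each of batch B libraries 1 and 2. It made up 2 of 211 LIN28 counts, a share of 0.948% (0.115 to 3.38%). No fold between batches is given, because both batches lay at or under the limit of 3 counts per library. Reads on the LIN28A row are too few to show whether the gene is transcribed.

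SALL4, a zinc finger factor of embryonic stem cells, had 1 and 2 counts in the A libraries and 1, 1 and 0 in those of batch B. Where it had a count, the upper bounds of its intervals ran from 8.11 to 14.9 CPM, and the 0 in batch B library 3 allows up to 4.38 CPM by the limit of 3 counts. Among its paralogs, SALL1 had 9 and 9 counts in the A libraries and 7, 17 and 15 in those of batch B. SALL2 had 24 and 35 counts in the A libraries and 11, 21 and 29 in those of batch B. SALL3 had 1 to 4 counts per library. SALL1 and SALL2 entered the test and neither passed it (edgeR adjusted p = 0.236 and 0.95). These 3 paralogs were named after their values were seen.

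PRAME had 55 and 47 counts in the A libraries and 30, 29 and 56 in those of batch B. The levels were 80.1 and 58.5 CPM against 80.3, 50.4 and 81.7 CPM, so that 3 libraries lay near 80 CPM and the other 2, one from each batch, lay lower. The fitted ratio was 1.04 (95% interval 0.779 to 1.39, edgeR adjusted p = 0.939). The interval leaves room for a difference of about the size fitted for IGF2BP3, so a similar level in both batches is not shown.

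**Figure D4:**
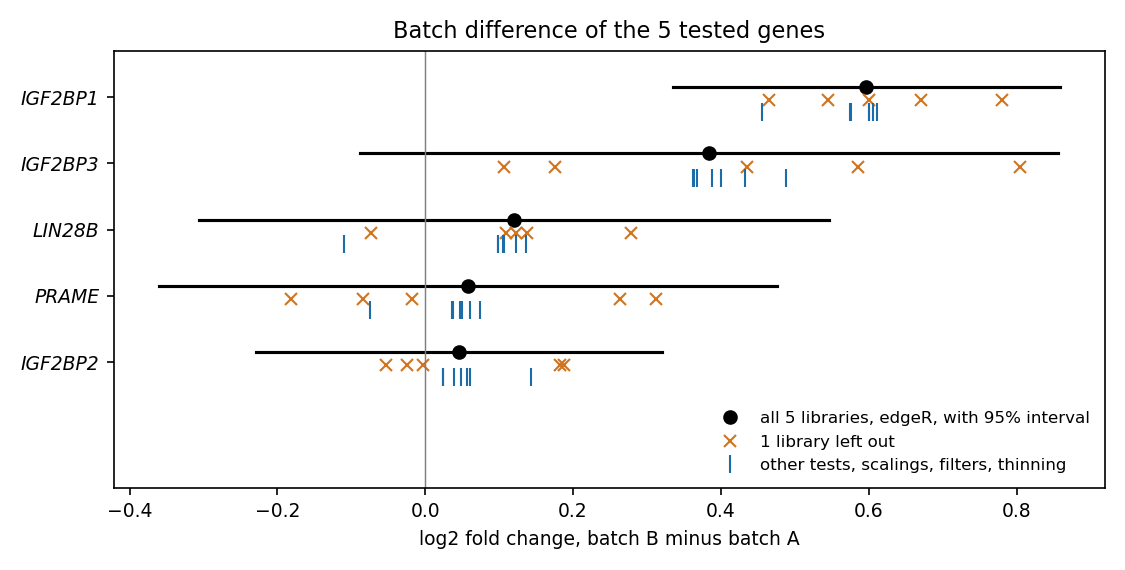
Log2 fold change of batch B minus batch A for the 5 tested genes: black points are the edgeR fit with all 5 libraries and its 95% interval, orange crosses are fits with 1 library left out, and blue ticks are other tests, scalings, filters and the thinned counts. All values of IGF2BP1 lie between 0.46 and 0.78, and those of LIN28B, PRAME and IGF2BP2 lie on both sides of 0.

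The order of the 5 detected genes was compared library by library. IGF2BP1 and IGF2BP2 each had more counts than IGF2BP3 in 5 of 5 libraries, with geometric mean ratios of 3.41 and 2.93, and IGF2BP2 exceeded PRAME in 5 of 5 libraries, by 2.33-fold. Neighbours at the top and bottom of the order did not separate. IGF2BP1 exceeded IGF2BP2 in 3 of 5 libraries, PRAME exceeded LIN28B in 2 of 5, and LIN28B exceeded IGF2BP3 in 3 of 5. Reads selected at 5′ ends do not add up along a transcript, so CPM is the scale that suits them, and division by length brings a length effect into the order. Per kb of the transcript used above, the mean levels were 43.8 CPM per kb for IGF2BP2, 25.5 for PRAME, 23.2 for IGF2BP1, 13.5 for IGF2BP3 and 12.1 for LIN28B. On that scale IGF2BP1, whose transcript has 8274 bases, moved below IGF2BP2 and PRAME.

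The genes nearest to each of the 5 in level and pattern were found by Euclidean distance of log2(CPM + 1) over the 5 libraries. For IGF2BP1 they were RP4-765C7.2 (distance 0.24), CDT1, a replication licensing factor (0.31), and NEDD8, a ubiquitin-like modifier (0.34). For IGF2BP2 they were DNAJB1, FAM120A and SEC61A1, and for IGF2BP3 they were CPSF3L, APP and GALNT2. For LIN28B they were CCNL2, NPTN and NT5C, and for PRAME they were ARMC1, PHC2 and NXN.

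The surrounding pathways were described from 10 lists of textbook members. Over these lists 146 genes had a row and 98 were tested. In batch B 5 of them were higher and 1 lower, which is 6.12% against 4.2% of all tested genes. The lists include LIN28A, LIN28B and the IGF2BP genes, so the call of IGF2BP1 is counted here again. The 6 genes were IGF2BP1, KHSRP, CDC34, MTA2, GPC3 and TCEB1, and with DESeq2 only IGF2BP1 and KHSRP passed. The median log2 difference of all tested genes was 0.004, and the medians of the lists are given beside it below.

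Of the factors that make and degrade let-7, 16 had a row and 13 were tested, of which 1 rose and 0 fell, with a median of 0.17. KHSRP, an RNA-binding protein that promotes maturation of let-7 precursors, rose 1.40-fold in batch B (edgeR adjusted p = 0.00208). Its counts were 159 and 203 in the A libraries and 140, 188 and 216 in those of batch B, or 242 ± 15.0 against 339 ± 31.5 CPM (SD, n = 2 and 3), with no overlap. KHSRP did not pass when batch A library 2 was left out (edgeR adjusted p = 0.0860) or after thinning (0.0548). HNRNPA1, which binds let-7 precursors as well, was at 747 ± 29.5 and 878 ± 60.5 CPM and did not pass (edgeR adjusted p = 0.212). XPO5, the exporter of precursor microRNAs, was at 104 ± 0.863 and 113 ± 13.3 CPM (edgeR adjusted p = 0.682). Of the let-7 genes and host transcripts, 6 of 18 names had a row and 0 were tested. LINC00478 had 8 counts over all libraries, MIR98 had 7 and MIRLET7D had 4. MIR98 lies within an intron of HUWE1, so its reads may come from that gene, and oligo-dT priming does not capture mature microRNAs.

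Of 24 textbook let-7 targets with a row, which include LIN28A, LIN28B and the 3 IGF2BP genes, 23 were tested, 2 rose and 0 fell, with a median of 0.05. Besides IGF2BP1, CDC34, a ubiquitin-conjugating enzyme of the cell cycle, rose 1.54-fold (edgeR adjusted p = 0.0428). Its batches overlapped, with 54 and 45 counts in the A libraries and 25, 67 and 74 in those of batch B, or 78.6 and 56.0 CPM against 66.9, 116 and 108 CPM. Its call was lost in 7 of 12 alternatives, among them the fits that left out library 3 of batch A (edgeR adjusted p = 0.585), library 2 of batch B (0.288) and library 3 of batch B (0.163). Without batch A library 3 the log2 difference of CDC34 was 0.36 in place of 0.62. HMGA1, an architectural chromatin protein, was the most abundant of the list at 420 CPM on average and had a fitted ratio of 1.04 (edgeR adjusted p = 0.878). HMGA2 had 76 and 84 counts in the A libraries and 62, 70 and 78 in those of batch B, or 108 ± 4.28 and 134 ± 28.1 CPM, and did not pass (edgeR adjusted p = 0.371). Of the 25 names of this list, 18 held at least 1 seed match and 6 held 4 or more. Among all protein-coding genes with a 3′ UTR, 8.62% held a match. The list was made of known let-7 targets and includes genes counted above, so many matches in it are not a separate result.

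Of 22 partners of the IGF2BP proteins and genes of the m6A machinery with a row, 21 were tested and 0 passed by edgeR, with a median of -0.09. At an unadjusted p under 0.05 there were 4 such genes, 1 higher and 3 lower in batch B. DESeq2 called 0 genes of the list and limma-voom 2, against 104 and 355 over all genes. YBX1, a cold-shock RNA-binding protein found in IGF2BP1 particles, was at 459 ± 9.11 and 424 ± 25.1 CPM (edgeR adjusted p = 0.748). HNRNPU, of the same particles, was at 414 ± 1.10 and 428 ± 33.5 CPM (edgeR adjusted p = 0.768). PABPC1, the poly(A)-binding protein, was at 670 ± 24.6 and 821 ± 73.4 CPM (edgeR adjusted p = 0.0909).

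Of 15 textbook mRNA targets of the IGF2BP proteins, 9 were tested and 0 passed by edgeR, with a median of -0.07. By edgeR 1 of the 9 had an unadjusted p under 0.05, which 16.4% of all tested genes reached. DESeq2 and limma-voom each called 0. IGF2, the growth factor from which the family takes its name, had 0 and 3 counts in the A libraries and 2, 1 and 1 in those of batch B. CD44, a cell adhesion receptor, had 0 to 2 counts per library. ACTB, the zipcode-bearing mRNA of beta-actin, was at 1588 ± 92.7 and 1453 ± 85.6 CPM (edgeR adjusted p = 0.732), and MKI67 at 149 ± 18.7 and 119 ± 3.57 CPM (edgeR adjusted p = 0.300). IGF2 and CD44 were named after their values were seen.

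SALL4 recruits the NuRD chromatin remodelling complex and is degraded through the ligase receptor CRBN. Of 20 genes of the SALL family, NuRD and the CRBN ligase, 19 were tested, 1 rose and 0 fell, with a median of 0.23. MTA2, a NuRD subunit, rose 1.77-fold, from 29 and 25 counts in batch A to 30, 32 and 41 in batch B, or from 36.7 ± 7.84 to 65.2 ± 13.2 CPM (edgeR adjusted p = 0.0373). Its call was lost in 7 of 12 alternatives, with edgeR adjusted p up to 0.429 when batch A library 3 was left out. The fits that left out library 2 of batch A (edgeR adjusted p = 0.0535), library 1 of batch B (0.162) and library 2 of batch B (0.0565) lost it too. The abundant histone-binding subunits RBBP7 and RBBP4 were at 427 and 314 CPM on average and HDAC1, a deacetylase, at 258 CPM, and these 3 did not pass (edgeR adjusted p = 0.228, 0.864 and 0.869).

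Of 28 names of pluripotency factors, 17 had a row, 13 had a count and 6 were tested, with a median of -0.11. By edgeR 0 passed, also at an unadjusted p under 0.05, which 16.4% of all tested genes reached. DESeq2 and limma-voom called 0 as well. POU5F1, the defining factor of pluripotent cells, was at 0 in all 5 libraries, as was DPPA2, the usual partner of DPPA4. SOX2, which neural progenitors express too, had 11 and 13 counts in the A libraries and 5, 9 and 9 in those of batch B. The highest levels were those of TERF1, a telomere-binding protein, at 52.7 CPM on average, DNMT3B, a de novo DNA methyltransferase, at 29.8 CPM, and KLF5 at 26.8 CPM. POU5F1, DPPA2 and SOX2 were named after their values were seen.

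PRAME was compared with other cancer-testis antigens, of which 13 of 30 names had a row and 7 had a count. MAGEB2 was the 1 gene of the list to enter the test, with 107 and 101 counts in the A libraries and 35, 65 and 77 in those of batch B. It was at 156 and 126 CPM against 93.7, 113 and 112 CPM, without overlap, and did not pass (edgeR adjusted p = 0.230). Its unadjusted edgeR p was under 0.05, as for 16.4% of all tested genes, which makes 1 such gene in the list. DESeq2 and limma-voom called 0. MAGEA6 had 1 to 12 counts per library and MAGEA12 had 0 to 6. These X-linked genes have near-identical copies, so their counts are uncertain. MAGEA1, MAGEC1, CTAG2, SSX1, CTCFL and TEX14 were at 0 in all libraries.

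**Figure D5:**
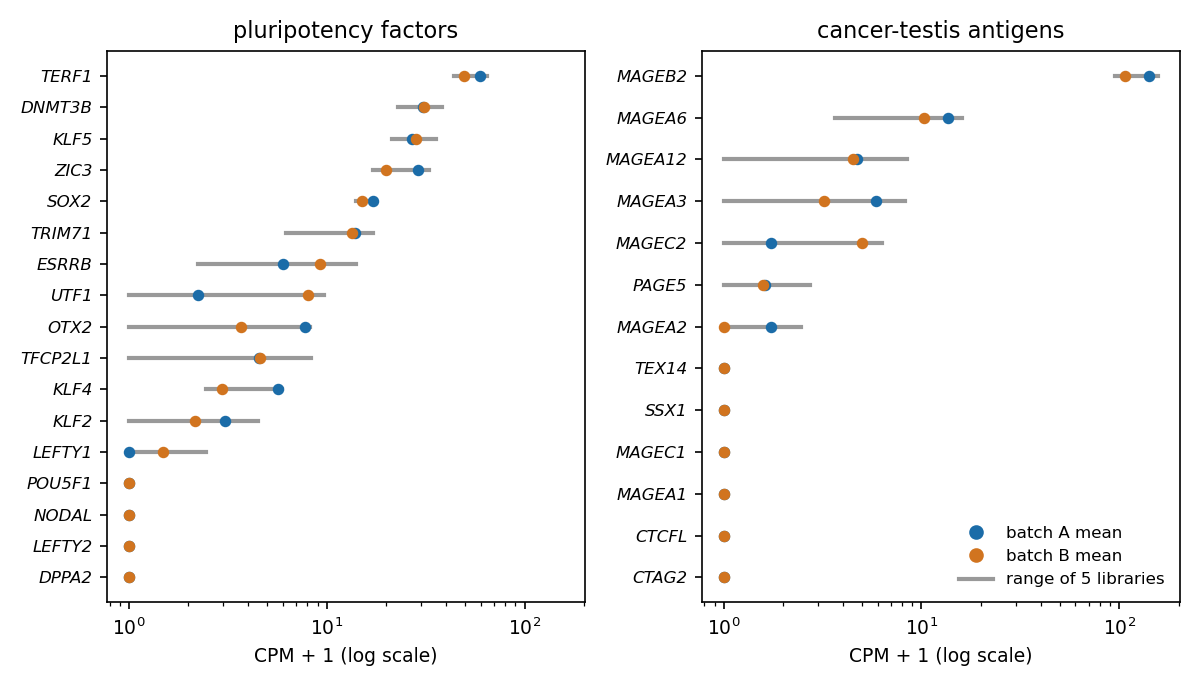
CPM + 1 (log scale) of the pluripotency factors and cancer-testis antigens with a row in the table; points are batch means, blue for batch A and orange for batch B, and grey bars span the 5 libraries. POU5F1 and DPPA2 are at 0 counts, and MAGEB2 is the 1 cancer-testis gene of this list above 100 CPM.

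A further list held the PRAME ligase, the retinoic acid receptors that PRAME can bind, the retinoid X receptors and EZH2. Of its 11 genes with a row, 9 were tested, 0 rose and 1 fell, with a median of 0.05. TCEB1, which links PRAME to CUL2, was at 386 ± 15.3 and 294 ± 51.2 CPM and fell by 0.34 on the log2 scale (SE 0.11, edgeR adjusted p = 0.0469). The call was lost in 10 of 12 alternatives, among them each of the 5 fits with a library removed (edgeR adjusted p = 0.0616 to 0.315). Its partner TCEB2 was at 852 ± 48.5 and 871 ± 56.6 CPM (edgeR adjusted p = 0.882), and RBX1, the RING subunit, at 547 ± 12.9 and 439 ± 23.8 CPM (edgeR adjusted p = 0.101).

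Of 11 other oncofetal antigens and placental genes with a row, 4 were tested, 1 rose and 0 fell, with a median of 0.22. GPC3, a cell surface glypican of fetal liver and hepatocellular carcinoma, rose 1.89-fold (95% interval 1.33 to 2.67, edgeR adjusted p = 0.0158). It had 27 and 25 counts in the A libraries and 27, 36 and 43 in those of batch B, or 35.2 ± 5.79 against 65.9 ± 5.54 CPM (SD, n = 2 and 3), without overlap. GPC3 did not pass when library 3 of batch A (edgeR adjusted p = 0.273) or library 1 of batch B (0.0510) was left out, after thinning (0.0616) and with DESeq2 (0.176). ROR1, a receptor tyrosine kinase of the embryo, was at 23.9 ± 4.96 and 24.5 ± 6.88 CPM (edgeR adjusted p = 0.938). AFP, the fetal serum protein, had 1 count in all, and DLK1, PEG10 and CGB5 had 0. AFP, DLK1, PEG10 and CGB5 were named after their values were seen.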

How the data were processed

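Expression was measured in 5 libraries of HEK293 cells. The deposited values are whole-number counts per gene, with no normalization by the authors visible in them. Per the submitters' processing notes, the tools named are STAR 2.4.0a and cutadapt 1.2.1, and the builds GRCh37 and hg19. The counting method, its use of strand and any collapsing of molecular identifiers are not given in the sources used. A column's batch follows from the start of its name, which it shares with the titles, and 52 spike-in rows were left out of library totals and tests.

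The batches were compared, B minus A, by edgeR 4.0.16 under R 4.3.3 (TMM, filterByExpr, quasi-likelihood F test, batch as the only term) over 9215 genes, with a call at a Benjamini-Hochberg adjusted p under 0.05. The SE was derived from the log2 fold change and the F statistic, and the 95% intervals of folds are normal intervals from it. Since all 9215 genes had infinite prior degrees of freedom, 1 common spread around the trend was used. The test was checked on simulated data in which all genes had the same spread and changes were larger than those of the called genes named here. That check does not cover changes of their size. Alternatives were DESeq2 1.42.0, limma-voom (limma 3.58.1), other scalings and filters, thinning in 1 seeded draw, and leaving out each library. Fits with 1 library of batch A left assume for it the spread seen in batch B.

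The genes and lists were chosen with earlier results of these data known. Named from each list are called genes (up to 5) and the 3 of highest mean CPM. Sequence matches used GENCODE release 29 (GRCh38), with the longest APPRIS principal transcript of each gene, and RefSeq microRNAs. Coordinates are left out because that build is not the one of the deposited counts.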

Additional observations from a re-analysis of the deposited data

How the results depend on the processing

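Of the 5 tested genes, IGF2BP1 kept its direction in all 12 alternatives and its call in 10, with log2 values of 0.46 to 0.78. IGF2BP3 kept its direction without a call in all 12, at 0.11 to 0.80. Near 0, signs turned: after thinning, LIN28B was at -0.11 and PRAME at -0.075. Over the fits that left out a library, LIN28B ranged from -0.073 to 0.28, IGF2BP2 from -0.053 to 0.19 and PRAME from -0.18 to 0.31. The number of these genes called was 1, and 0 after thinning and, over fits that left out a library, 0 to 1.

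Over all genes 387 were called, 198 higher and 189 lower. The counts were 104 with DESeq2 (59 higher, 45 lower) and 187 after thinning (98 and 89). Without a filter on low counts 121 were higher. Leaving out a library gave 138 to 333 calls (79 to 170 higher, 58 to 163 lower), with 138 when library 2 of batch A was removed, 152 for library 3 of batch A and 202 for library 2 of batch B. Calls over the 10 lists numbered 6, and were 2 with DESeq2, 3 without a filter, 0 after thinning and 2 to 7 with a library left out. The cause of these changes was not tested, except that thinning and leaving out libraries reduce the counts or samples.

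The difference in the share of IGF2BP3 was -0.678 to 2.67 percentage points over fits that left out a library. On the scale of CPM per kb, the log2 ratio of IGF2BP1 over IGF2BP2 was -0.92 in place of 0.25, that of LIN28B over IGF2BP3 was -0.16 in place of 0.22, and that of PRAME over LIN28B was 1.07 in place of 0.08, which follows from transcript lengths. The number of genes with a let-7 seed match was 6 of 8 also for the match followed by A and for bases 2 to 7.

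No paired analysis was possible because the columns of batch A end in other numbers than the replicates in the sample titles. Depth limits LIN28A and SALL4, which had 0 to 2 counts per library.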

Other observations

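Genes below were picked after the data were seen. MTA2 apart, those that were tested did not pass the adjusted test. In the list of the SALL family, NuRD and the CRBN ligase, 8 of 19 tested genes had an unadjusted edgeR p under 0.05, 7 higher and 1 lower in batch B, with the called MTA2 among the 7, against 16.4% of all tested genes. The NuRD subunits CHD4, MBD3 and GATAD2B had edgeR adjusted p = 0.0797, 0.0789 and 0.10. CHD4, the ATPase of the complex, was at 151 ± 18.4 CPM in batch A against 193 ± 17.2 CPM in batch B (SD, n = 2 and 3). MBD3 was at 47.0 ± 0.513 and 72.4 ± 8.23 CPM, and GATAD2B at 39.7 ± 10.8 and 66.0 ± 15.5 CPM. Other NuRD subunits had values in the opposite direction: MTA3 was at 54.1 ± 16.8 and 38.7 ± 17.6 CPM (edgeR adjusted p = 0.487), and GATAD2A at 82.6 ± 0.572 and 71.0 ± 9.35 CPM (0.731). The log2 differences of HDAC1 and RBBP4 were -0.061 and -0.059.

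Among the m6A genes, METTL3, the catalytic methyltransferase, was at 140 ± 1.25 CPM in batch A against 96.4 ± 7.70 CPM in batch B (edgeR adjusted p = 0.0519). The readers YTHDF3 and YTHDC1 were at 82.4 ± 9.09 and 48.8 ± 23.6 CPM and at 71.0 ± 8.78 and 46.9 ± 12.4 CPM (edgeR adjusted p = 0.0684 and 0.172), whereas YTHDF2 was at 336 ± 8.43 and 348 ± 12.2 CPM (0.794).

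H19, an imprinted fetal RNA, had 0 counts in both libraries of batch A and 0, 5 and 3 counts in batch B. It did not pass the filter on low counts and was not tested. By the limit of 3 counts, a 0 allows 4.37 and 3.74 CPM in batch A libraries 2 and 3 and 8.03 CPM in batch B library 1.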
